A study of Mus musculus with 9 samples.

Results

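The genes described here belong to the integrated stress response and are Atf4, Atf5, Ddit3, Trib3, Ppp1r15a, Psat1, Phgdh, Asns, Chac1 and Sesn2. They were chosen by symbol in the deposited table of raw read counts, the row with most reads being kept for each, which gave 10 of the 53465 genes listed. All 10 were above the low-count limit, a CPM (reads of the gene per 1e+06 counted reads) over 1 in 3 or more libraries, and so were tested among 11950 genes. Chac1 passed it in 5 libraries only, none of them in the group where it was lowest, so its place among the tested genes rests on the groups where it was high.

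RNA-Seq was performed on bone marrow-derived macrophages (BMDMs) from male wild-type C57BL/6 mice, grown with CSF1 at 50 ng/ml in a medium holding 5 mM glutamine per the labels. The methods name the substrain as C57bl6/J and give a lower glutamine concentration. In 3 libraries the cells were left untreated (UNX), in 3 they received medium conditioned by pulmonary artery adventitial fibroblasts of control calves (CO-CM), and in 3 medium conditioned by such fibroblasts from calves with hypoxia-induced pulmonary hypertension (PH-CM). The labels give the exposure as 16 h in one field and as 24 h in another, and the methods give a time between these. The fibroblast media were bovine and pooled from several fibroblast populations, so a replicate here does not stand for a single donor calf. Whether the same pool served every replicate is not stated. No group received medium that fibroblasts had not conditioned but that was otherwise handled alike, so conditioning and the change of medium cannot be told apart in a comparison with UNX.

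The integrated stress response is the pathway by which kinases that sense amino acid shortage, unfolded protein in the endoplasmic reticulum, double-stranded RNA or heme lack phosphorylate eIF2 alpha. General translation then drops while the mRNA of Atf4 is translated more, and the ATF4 protein, a bZIP transcription factor, pairs with C/EBP proteins to turn on genes for amino acid supply, tRNA charging and, under long stress, cell death. The step from Atf4 mRNA to protein is thus a regulated one, and only mRNA was measured here. Macrophages are known to draw on this pathway when nutrients run short or when they are activated.

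Many target genes carry a C/EBP-ATF response element, spelled TGATGNAA, where N is any base. In the RefSeq promoters (GRCm38.p6, the 250 bases before each transcript start, both strands read), these letters were found for 2 of the 10 genes, Asns and Chac1, and for 3.91% of all 27025 genes with a promoter in the table. Both stretches are shown, with the matched bases in capitals. The other genes of the 10, Psat1 and Phgdh among them, had no match. The Asns stretch lies at chr6:7693214-7693243 on the minus strand, inside the first exon of a longer annotated transcript, and its match starts 23 bases before the RefSeq start. The Chac1 stretch lies at chr2:119350992-119351228 on the plus strand, upstream of every annotated exon, and its match, spelled on the other strand, starts 193 bases before the RefSeq start.
Asns: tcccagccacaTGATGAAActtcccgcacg
Chac1: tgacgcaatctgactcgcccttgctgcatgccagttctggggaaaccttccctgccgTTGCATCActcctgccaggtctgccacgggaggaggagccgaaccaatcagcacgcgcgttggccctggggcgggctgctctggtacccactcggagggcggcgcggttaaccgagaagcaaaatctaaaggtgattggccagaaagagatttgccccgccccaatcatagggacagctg
A match is a description of these letters and not evidence of binding.

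Libraries held between 62017933 and 84314201 counted reads. The 9 macrophage markers summed to 12130 to 12910 CPM in UNX, 19380 to 20320 in CO-CM and 21830 to 23650 in PH-CM, and none was at 0. Lyz2 made up most of each sum, at 6854 to 7557 CPM in UNX, 12540 to 13040 in CO-CM and 14490 to 15670 in PH-CM. Csf1r, Adgre1, Cd68, Mertk and Spi1 also lay above their UNX range with both media. Cd14 was lower with CO-CM, at 286.7 to 334.8 CPM in UNX, 158.3 to 189.3 in CO-CM and 734.8 to 889.6 in PH-CM. Itgam and Fcgr1 in CO-CM reached below their UNX range and overlapped with it. The 9 fibroblast markers, mostly Col1a1 and Col1a2, summed to 200.2 to 252.9 CPM in UNX, 274.2 to 325 in CO-CM and 254.3 to 339.2 in PH-CM. Col3a1 was at 13.4 to 21.4 CPM in UNX, 16.9 to 26.5 in CO-CM and 25.4 to 42.8 in PH-CM. Dcn, Pdgfra, Pdgfrb and Postn lay between 0.71 and 8.31 CPM in all libraries, and Lum and Thy1 at most at 0.253. Markers of neutrophils summed to at most 5.05 CPM in any library, those of lymphocytes to at most 0.15 and those of mast cells and basophils to at most 0.66. The part of these levels in the results below was not tested, and in bulk RNA fewer cells of a type cannot be told apart from less RNA per cell.

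The 10 genes moved in 2 directions. Genes for making serine and asparagine, Chac1, Trib3 and Atf4 itself fell with both media, and their means were lowest with PH-CM, whereas Ppp1r15a rose with both media, Sesn2 and Atf5 were highest with PH-CM and Ddit3 was highest with CO-CM. Genes were called at an edgeR quasi-likelihood FDR (Benjamini-Hochberg adjusted p over all genes tested) of no more than 0.05 where they also differed at least 1.2-fold. In PH-CM against UNX, 9 of the 10 genes were called, beside 63% of all genes tested. Of these, 3 were higher (31.3% of all genes) and 6 lower (31.7%), and the median log2 fold change of the 10 was -0.93 beside 0.01 for all genes. In CO-CM against UNX, 8 were called beside 57% of all genes, 2 higher (28%) and 6 lower (28.9%), with a median of -0.46 beside 0. In PH-CM against CO-CM, 8 were called beside 27.1% of all genes, 1 higher (12.2%) and 7 lower (15%), with a median of -0.62 beside -0.01. Any 2 of the 3 comparisons share the libraries of 1 group, so the counts of all 3 are not independent of each other. An exact permutation test of 3 against 3 libraries cannot go below p = 0.1 (two-sided), and the FDR values therefore rest on the spread shared across genes.

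**Figure D1:**
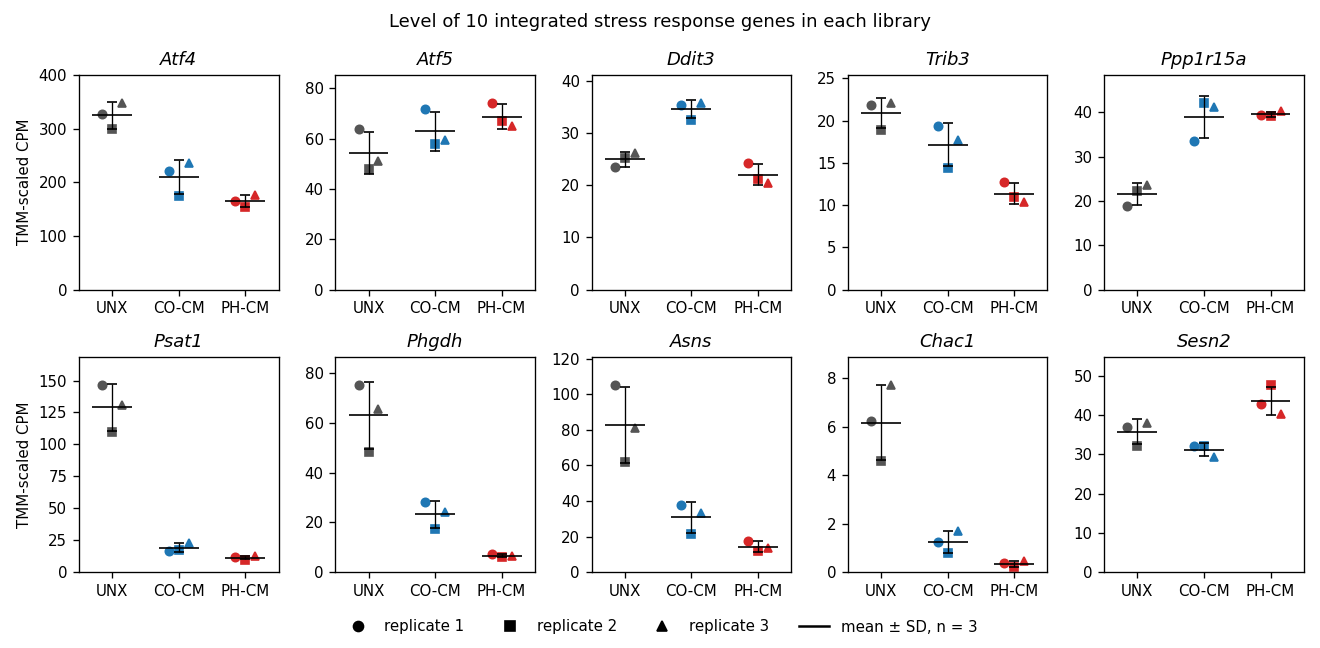
Level of each gene in CPM scaled by TMM, a factor for library composition (y axis, from 0), in the 3 libraries of each group (x axis), with marker shapes for the replicate number and black bars for the mean ± SD. Psat1, Phgdh, Asns and Chac1 step down from UNX to CO-CM to PH-CM without overlap, while Ppp1r15a steps up with either medium.

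Atf4 (chr15:80255184-80257541, plus strand, GRCm38 here and below), the transcription factor that gives the pathway its output, was measured at 328, 299.5 and 349 CPM in UNX, at 221, 176 and 237 in CO-CM and at 166, 154 and 177 in PH-CM (replicates 1, 2 and 3 in this order, here and below). Every library with a conditioned medium lay below every UNX library, and the ranges of CO-CM and PH-CM overlapped narrowly. Atf4 fell by 0.97 on the log2 scale with PH-CM (SE 0.104, FDR 1.02e-05), to 50.9% of its UNX level, and by 0.62 with CO-CM (SE 0.103, FDR 0.000313). PH-CM was below CO-CM by a log2 fold change of -0.35 (SE 0.103, FDR 0.0221). That last call was lost without CO-CM replicate 1 or 3 (FDR 0.0568 and 0.09) and without PH-CM replicate 1 or 2 (FDR 0.0601 and 0.0872), as well as without replicate 1 of every group (0.0943). Atf4 was still the most abundant of the 10 genes per transcript length in all 3 groups, with an RPKM (reads per kilobase of exon and per 1e+06 counted reads) of 194 ± 15 in UNX, 120.1 ± 19.1 in CO-CM and 95 ± 6.72 in PH-CM (SD, n = 3).

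Atf5 (chr7:44812256-44816658, minus strand), a related bZIP factor whose mRNA is likewise translated under eIF2 alpha phosphorylation, went the other way from Atf4 with PH-CM. It was at 63.7, 48 and 51.1 CPM in UNX, 71.9, 57.7 and 59.4 in CO-CM and 74.3, 67.2 and 65 in PH-CM, so that every PH-CM library lay above every UNX library by a small margin. Its log2 fold change was 0.34 in PH-CM against UNX (SE 0.113, FDR 0.0173), a call lost without UNX replicate 2 (FDR 0.0746), UNX replicate 3 (0.0699) or PH-CM replicate 1 (0.0624), and with scaling by library size alone. CO-CM against UNX did not pass (0.22, FDR 0.109) but was called without UNX replicate 1 (0.33, FDR 0.0107) and with upper-quartile scaling. PH-CM against CO-CM did not pass either (0.13, 95% interval -0.12 to 0.38, FDR 0.407). Atf5 shares 82 exon bases with Nup62 on the opposite strand, a gene with 79753 reads in all beside 38402 for Atf5, and featureCounts was run without strand, so reads over those bases were not assigned to either gene.

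Ddit3 (chr10:127290774-127296288, plus strand) encodes CHOP, the factor tied to cell death under long stress, and its order of groups was unlike that of any other gene of the 10. It was at 23.4, 25.3 and 26.2 CPM in UNX, 35.4, 32.6 and 35.9 in CO-CM and 24.3, 21.3 and 20.5 in PH-CM. CO-CM stood above both other groups in every library, while UNX and PH-CM overlapped. Ddit3 rose with CO-CM by a log2 fold change of 0.47 (SE 0.075, FDR 0.000246), and PH-CM was lower than CO-CM by -0.65 (SE 0.075, FDR 9.24e-05). PH-CM against UNX gave -0.18 (SE 0.075, FDR 0.0474), under the fold change needed for a call, and the same-numbered pairs disagreed in sign, from -0.35 to 0.05. Without replicate 1 of every group this difference was -0.31 and was called (FDR 0.00329). Ddit3 shares 68 exon bases with Mars, the methionyl-tRNA synthetase gene on the opposite strand.

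Trib3 (chr2:152337422-152344032, minus strand), a pseudokinase induced by ATF4 and CHOP that restrains them in turn, followed Atf4. It was at 21.8, 18.9 and 22.1 CPM in UNX, 19.4, 14.4 and 17.7 in CO-CM and 12.8, 11 and 10.4 in PH-CM. PH-CM lay below both other groups in every library, and CO-CM overlapped with UNX. Trib3 fell by 0.88 with PH-CM against UNX (log2, SE 0.119, FDR 6.04e-05), and PH-CM was below CO-CM by -0.59 (SE 0.119, FDR 0.003). The fall with CO-CM against UNX, -0.29 (SE 0.116, FDR 0.0468), was just inside the limit. It lost its call without any one of 6 of the 9 libraries, namely UNX replicates 1 (FDR 0.0889) and 3 (0.111), CO-CM replicates 2 (0.173) and 3 (0.0732) and PH-CM replicates 2 (0.0626) and 3 (0.0535).

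Ppp1r15a (chr7:45522916-45526268, minus strand) encodes GADD34, the stress-induced subunit that leads protein phosphatase 1 to eIF2 alpha and so ends the response. It was at 18.8, 22.3 and 23.6 CPM in UNX, 33.6, 42.1 and 41.3 in CO-CM and 39.3, 39.2 and 40.3 in PH-CM, with no overlap between UNX and either medium. The log2 fold change was 0.86 with CO-CM (SE 0.099, FDR 2.39e-05) and 0.88 with PH-CM (SE 0.099, FDR 1.56e-05). Between the media the difference was 0.02 with a 95% interval of -0.20 to 0.24 (FDR 0.884), so a difference of a size within that interval is not excluded. Its RPKM stood at rank 9 of the 10 in UNX, 7.53 ± 0.768 (SD, n = 3), and at rank 3 in PH-CM, 13.3 ± 0.231, where its range overlapped with that of Ddit3.

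**Figure D2:**
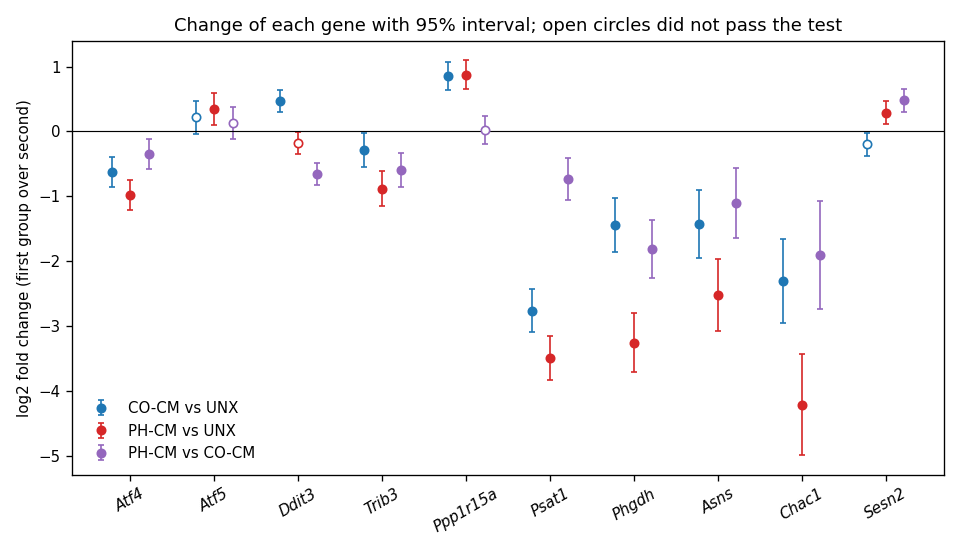
Log2 fold change of each gene (y axis, first group over second) in 3 comparisons, with 95% intervals from the edgeR fit. Filled circles passed both limits (FDR and fold change) and open circles did not. Chac1, Psat1, Phgdh and Asns lie farthest below 0, and Ppp1r15a lies above 0 at 0.86 and 0.88 with CO-CM and PH-CM and near 0 between the media.

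Both members that encode enzymes of serine synthesis fell with either medium, and further with PH-CM. Phgdh (chr3:98313170-98339990, minus strand) encodes phosphoglycerate dehydrogenase, which takes the first step from glycolysis into serine, and was at 75.1, 48.3 and 65.7 CPM in UNX, 28.1, 17.3 and 24.1 in CO-CM and 7.23, 5.89 and 6.65 in PH-CM. The 3 groups did not overlap. Phgdh fell by 3.26 on the log2 scale with PH-CM (SE 0.204, FDR 1.94e-07), to 10.5% of UNX, and by 1.44 with CO-CM (SE 0.185, FDR 5.3e-05). PH-CM was below CO-CM by -1.81 (SE 0.2, FDR 6.57e-05). A second row with the symbol Phgdh belonged to the pseudogene Phgdh-ps1, which held 2 reads in all.

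Psat1 (chr19:15904678-15947337, minus strand), the aminotransferase of the next step, was at 146, 109.8 and 131 CPM in UNX, 16.8, 17.1 and 23.2 in CO-CM and 12.1, 9.88 and 12.3 in PH-CM. Most of its fall was already present with CO-CM. The log2 fold change was -2.76 with CO-CM (SE 0.147, FDR 9.11e-08) and -3.49 with PH-CM (SE 0.153, FDR 1.49e-08), the latter leaving 8.88% of UNX. The further step from CO-CM to PH-CM was -0.73 (SE 0.147, FDR 0.00302). Psat1 stood at rank 2 of the 10 per length in UNX, 31.2 ± 4.79 RPKM, in a range that overlapped with those of Asns and Atf5, but at rank 9 in CO-CM (4.37 ± 0.803) and rank 8 in PH-CM (2.66 ± 0.336, SD, n = 3).

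Asns (chr6:7675169-7693254, minus strand) encodes asparagine synthetase, which uses glutamine to make asparagine and is the classic gene read out for amino acid shortage. It was at 104.9, 61.8 and 81.2 CPM in UNX, 37.9, 21.2 and 33.3 in CO-CM and 17.8, 11.8 and 13.5 in PH-CM. Although the libraries of 1 group spread widely, no 2 groups overlapped. Asns fell by 1.42 on the log2 scale with CO-CM (SE 0.236, FDR 0.000331) and by 2.52 with PH-CM (SE 0.249, FDR 5.8e-06), to 17.4% of UNX. PH-CM was below CO-CM by -1.10 (SE 0.244, FDR 0.00523).

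Chac1 (chr2:119351229-119354381, plus strand), which encodes an enzyme that breaks down glutathione, showed the largest fold change and the lowest level. It held 404, 346 and 662 reads in UNX, 84, 53 and 122 in CO-CM and 24, 12 and 28 in PH-CM, or 6.23, 4.58 and 7.71, then 1.23, 0.793 and 1.72, then 0.357, 0.193 and 0.443 CPM. Each mate of a read pair was counted by itself, so the number of fragments behind these reads is smaller. The log2 fold change was -4.21 in PH-CM against UNX (SE 0.349, FDR 1.54e-06), 18.5-fold lower, and -2.31 in CO-CM against UNX (SE 0.293, FDR 4.95e-05). PH-CM was below CO-CM by -1.91 (SE 0.376, FDR 0.00266), with the widest standard error of the 10 genes.

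Sesn2 (chr4:132492032-132510501, minus strand) encodes sestrin 2, a leucine sensor that holds back mTORC1. It was at 37, 32.1 and 38 CPM in UNX, 32.1, 32 and 29.3 in CO-CM and 42.8, 47.5 and 40.3 in PH-CM. Every PH-CM library lay above every library of the other groups, while UNX and CO-CM overlapped. PH-CM was above CO-CM by a log2 fold change of 0.48 (SE 0.081, FDR 0.000999), the only gene of the 10 called higher between the media. Against UNX the rise with PH-CM was 0.29 (SE 0.08, FDR 0.00785), near the fold change limit, and lost its call without UNX replicate 2 (0.20) or PH-CM replicate 2 (0.22), with scaling by library size alone and with both other filters. CO-CM against UNX gave -0.20 (FDR 0.0497), under the fold change limit, and was called without UNX replicate 2 (-0.28, FDR 0.00786) and with scaling by library size alone.

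Levels can be ordered between genes only per length. In UNX the RPKM of Psat1, Asns, Atf5 and Phgdh, between 26.1 and 31.2 on average, could not be separated beyond their spread, and Ddit3 (15 ± 0.66), the overlapping pair Sesn2 (10.6 ± 0.982) and Trib3 (10.1 ± 0.928), Ppp1r15a and Chac1 (3.88 ± 0.972) followed (SD, n = 3). In PH-CM the order below Atf4 was Atf5 (34.1 ± 2.88), then Ppp1r15a, Ddit3 (12.7 ± 1.33) and Sesn2 (12.4 ± 0.995) with overlapping ranges, then Trib3 (5.29 ± 0.651) and Asns (5.20 ± 1.19), which also overlapped, then Psat1 and Phgdh (2.62 ± 0.301), and last Chac1 (0.200 ± 0.0769). In CO-CM Atf4 and Atf5 were followed by Ddit3 at rank 3 (19.8 ± 1.26) and by 5 genes from Ppp1r15a (13 ± 1.34) down to Trib3 (7.92 ± 1.31) each overlapping with the next. The metabolic genes that stood level with Atf5 in UNX thus ranked below the regulators Atf5, Ppp1r15a, Ddit3 and Sesn2 with PH-CM.

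Libraries with the same replicate number deviated together. The labels do not say what the number stands for, so what same-numbered libraries share is not known. Replicate 2 was the lowest of its group in all 3 groups for 4 of the 10 genes, Atf4, Asns, Phgdh and Chac1, as it was for 9.57% of all genes tested. For Asns its deviation from the group mean on the log2 scale was -0.39 in UNX, -0.50 in CO-CM and -0.26 in PH-CM. The log2 ratios between same-numbered libraries of Asns ran from -2.59 to -2.38 in PH-CM against UNX and for Atf4 from -0.98 to -0.96. Over the 3 comparisons all 3 same-numbered pairs had one sign for every gene except Ddit3 in PH-CM against UNX and Ppp1r15a in PH-CM against CO-CM.

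**Figure D3:**
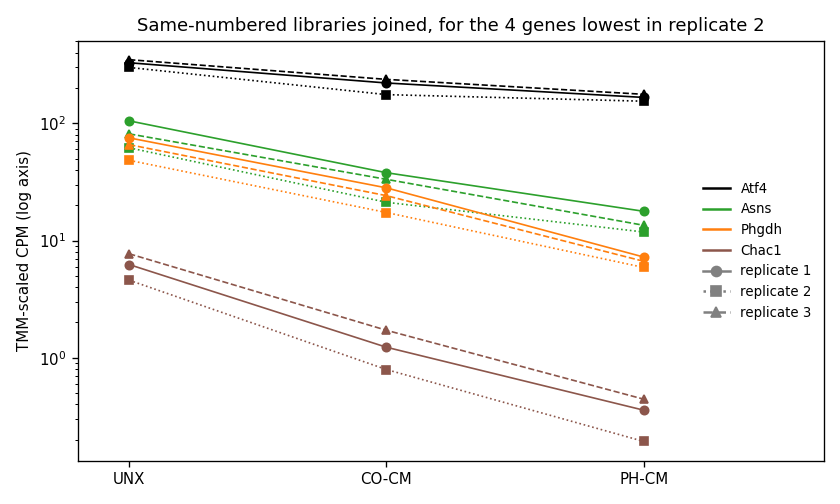
TMM-scaled CPM (log axis) of Atf4, Asns, Phgdh and Chac1 in the 3 groups, with lines joining libraries of the same replicate number. The dotted line of replicate 2 is the lowest for each gene in every group, and the lines of a gene run nearly parallel.

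The other genes of the pathway were counted from 8 lists, whose counts are to be read beside the shares of all genes called higher and lower, 31.3% and 31.7% with PH-CM, 28% and 28.9% with CO-CM, and 12.2% and 15% between the media. In these lists higher and lower mean called in that comparison, values are log2 fold changes, and a medium named alone is compared with UNX. Of the 4 eIF2 alpha kinases, Eif2ak1 (HRI, the heme sensor) was higher with PH-CM (0.41) and with CO-CM (0.29). Eif2ak4 (GCN2, the sensor of uncharged tRNA) was higher with CO-CM (0.29) and at -0.16 with PH-CM, not called, and PH-CM was lower than CO-CM (-0.46). Eif2ak2 (PKR, the sensor of double-stranded RNA) was lower with CO-CM (-0.62) and at -0.25 with PH-CM, not called, with PH-CM above CO-CM (0.37). Eif2ak3 (PERK, the sensor in the endoplasmic reticulum) was called in none of the 3 comparisons (0.14, 0.05 and 0.09). These calls depend on the settings. The number of kinases called with CO-CM went from 3 to 1 with scaling by library size alone and with both other filters, and to 2 without UNX replicate 1 or without replicate 1 of every group. With PH-CM it went from 1 to 2 under those 3 settings and without UNX replicate 2 or 3, PH-CM replicate 1 or replicate 1 of every group, and to 4 with no fold change limit.

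Of 10 genes for subunits of eIF2, of its exchange factor eIF2B and of its phosphatase, 6 were lower and 4 not called with PH-CM, and 7 were lower and 3 not called with CO-CM. The number called was thus near the share of all genes called, 63% and 57%, with all of the calls lower. Eif2b2 and Eif2b4 were among those called with neither medium. Eif2b3, a subunit of the exchange factor, was at -1.09 with PH-CM and -0.95 with CO-CM, and Eif2s1, which encodes eIF2 alpha itself, was at -0.78 and -0.70. Between the media 0 of the 10 were called by the edgeR quasi-likelihood test, by the edgeR exact test or by DESeq2, with a median of -0.05, and 0 had an unadjusted p under 0.05.

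The bZIP proteins that can pair with ATF4 differed from one another. With PH-CM 5 of 8 were higher, led by Fos (1.94) and Cebpb (1.87), and Atf3 and Jun (-0.60) were lower, so that 7 were called beside 63% of all genes. With CO-CM Atf3, Cebpg (0.55) and Cebpb (0.28) were higher, and Maf (-0.77) and Jun (-0.70) were lower. Atf3, itself a target of ATF4, was like Ddit3 in being higher with CO-CM, at 198, 267 and 253 CPM beside 111, 142 and 124 in UNX and 83.6, 99.5 and 88.3 in PH-CM. Its log2 fold change was 0.93 in CO-CM against UNX (FDR 5.25e-05), -0.47 in PH-CM against UNX and -1.40 in PH-CM against CO-CM (FDR 1.27e-05).

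The list of enzymes around serine, glycine and one-carbon metabolism also holds the proline genes Aldh18a1 and Pycr1 and the aminotransferases Got1 and Gpt2. Of 11 tested (Cth and Cbs were below the count limit), 9 were lower and 2 higher with PH-CM, with a median log2 fold change of -1.31, and 10 were lower with CO-CM, with a median of -1.04 and Got1 not called. Mthfd2, the mitochondrial enzyme of folate metabolism, was at -2.87 with PH-CM and -1.93 with CO-CM. Shmt2, which splits serine into glycine in mitochondria, was at -1.98 and -1.63, and Aldh18a1, of proline synthesis, at -2.04 and -1.38. The 2 higher with PH-CM were the aminotransferases Got1 (1.39) and Gpt2 (0.33), of which Gpt2 was lower with CO-CM (-0.30). Between the media Mthfd2 (-0.94), Aldh18a1 (-0.66) and Mthfd1 (-0.27) were lower with PH-CM, Got1 (1.22) and Gpt2 (0.63) higher and the other 6 not called.

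Transporters diverged with PH-CM. Of 7 amino acid transporters tested (Slc7a3, Slc6a9 and Slc43a1 were below the limit), 5 were lower and 2 higher with PH-CM, and 5 were lower and 1 higher with CO-CM. Slc7a5, the light chain of the leucine carrier, was at -3.92 with PH-CM and -2.84 with CO-CM, and Slc7a1, a carrier of cationic amino acids, at -2.89 and -2.07. Slc7a11, the cystine carrier, had the opposite sign, at 2.22, 1.51 and 1.68 CPM in UNX, 2.60, 2.36 and 2.42 in CO-CM and 44.7, 36.5 and 45.2 in PH-CM. Its log2 fold change was 4.56 in PH-CM against UNX (SE 0.139, FDR 1.57e-09) and 4.10 in PH-CM against CO-CM (FDR 2.57e-08). Slc3a2, the heavy chain that Slc7a5 and Slc7a11 share, was higher with PH-CM at 0.44 and at -0.004 with CO-CM, not called.

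The cytosolic aminoacyl-tRNA synthetases, which charge tRNA, were nearly all lower with either medium. With PH-CM 16 of 18 were lower, with a median of -0.93, and Nars and Qars were not called. With CO-CM 16 were lower, with a median of -0.73, and Qars and Wars were not called. Vars was at -1.60 and -1.46 and Yars at -1.57 and -1.35. Between the media Eprs (-0.53), Wars, Gars, Cars and Sars were lower with PH-CM and 13 were not called.

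The list of other ATF4 and CHOP targets had no common direction. It also holds Trib1, Trib2, Sesn1 and Sesn3, relatives of Trib3 and Sesn2, and the bZIP gene Jdp2. Whether each gene of the list is a target in these cells was not tested. With PH-CM 11 of 19 tested were higher, beside 31.3% of all genes, and 5 lower, a share no larger than the 31.7% of all genes, with a median of 0.37, and Fgf21 and Trib2 were below the limit. Gdf15, a secreted stress cytokine, was at -1.996 with PH-CM and -2.10 with CO-CM, whereas Ddit4, an inhibitor of mTORC1, was higher with PH-CM (1.72) and Bcl2l11, a death gene of the BCL2 family, was higher with both (1.54 and 1.36). With CO-CM 8 were higher and 6 lower, with a median of 0.07. Between the media 6 were higher, led by Jdp2 (1.87), and Sesn1 and Bbc3 lower.

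The chaperones of the endoplasmic reticulum and other arms of the unfolded protein response numbered 16, of which 11 were lower, 2 higher and 3 not called with PH-CM. With CO-CM 8 were lower, 3 higher and 5 not called, beside 28.9% of all genes lower. Sdf2l1 was at -1.42 and Manf at -1.31 with PH-CM, while Ern1, which encodes the sensor IRE1 alpha, was higher at 0.96, as was the chaperone gene Dnajb9 at 0.38. Between the media 7 were lower and Ern1 higher, with Sdf2l1 at -0.96 and Hspa5, the chaperone BiP, at -0.50.

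**Figure D4:**
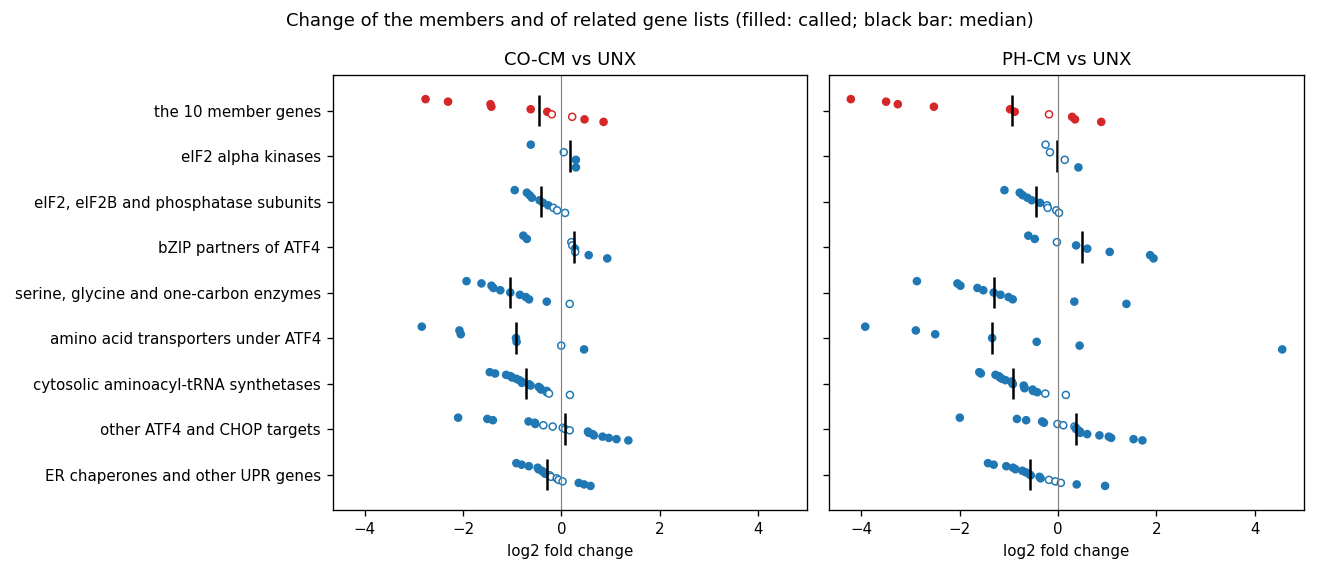
Log2 fold change against UNX (x axis) of the 10 genes (red) and of the genes in 8 related lists (blue, 1 row each) with CO-CM (left) and PH-CM (right), filled where called, with a black bar for the median of the row. The serine, glycine and one-carbon enzymes, the synthetases and the eIF2 subunits lie mostly below 0, and Slc7a11 stands alone at 4.56 with PH-CM.

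The genes whose log2 CPM over the 9 libraries, centred on its mean, lay nearest to that of a member were found among 8568 genes with a mean CPM of at least 10. Nearest to Asns were Mthfd2 at a root mean square difference of 0.22, Prag1 at 0.23 and Aldh18a1 at 0.27, beside an SD of 1.14 for Asns itself. Nearest to Atf4 (SD 0.45) were Mrps28 at 0.05 and Qsox2 at 0.08. Nearest to Ddit3 (SD 0.30) were Plekhm1 at 0.07, Mctp1 at 0.07 and Gnas at 0.08. All these genes share the same 9 libraries in 3 groups, and no test was made of the likeness.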

How the data were processed

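RNA-Seq libraries were made with a kit that selects mRNA and were sequenced as read pairs. Per the labels and the methods, the authors used FastQC and AfterQC for quality control and trimming. Alignment to GRCm38 was by STAR and assignment to genes by featureCounts 1.6.2. The deposited counts are unscaled whole numbers in which each mate was taken to count by itself, most low values being even. Strand was not used, and reads over 2 genes were not counted. RPKM values deposited by the authors are those counts over exon length and library total, without a composition factor. Their 3 comparison tables hold fold changes and p-values of their own edgeR test and were not used.

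Counts were normalized by TMM and fitted for all 9 libraries, with a mean per group, in edgeR 4.0.16 (quasi-likelihood test, R 4.3.3), after a filter of CPM above 1 in at least 3 libraries. The fit was tested on simulated data first. Standard errors are the log2 fold change over the root of F. The RPKM served only to order genes by level. The 10 genes and the gene lists were chosen with earlier results of these data known. All 10 are named, and of each list up to the 4 called genes with the largest change, all genes of lists of at most 6, and those below the filter. Dnajb9, Slc3a2, Cebpb with CO-CM, Eif2b2, Eif2b4, Pycr1, Mthfd1, Sars, Bbc3, Nars, Qars and Wars were named after their values were seen. The nearest genes by pattern are the 3 nearest to Atf4, Ddit3 and Asns, of which 1 is not reported here.

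Groups and replicate numbers came from the labels. Same-numbered libraries of different groups correlated in their deviations from the group means (r from 0.276 to 0.484 across genes in 9 pairs), and since every r was over 0.1 the numbers were taken to pair them. Nothing says that replicates came from separate mice, so p-values measure the spread between these libraries. Alternatives were 3 other normalizations, 2 other filters, the edgeR exact test, DESeq2 1.42.0, a fit of only the 2 groups compared, a replicate block, halved counts, no fold change limit and each library left out. A fit without replicate 1 of every group was added after seeing that replicate 1 stood apart from replicates 2 and 3 in each group. Gene positions and exons came from a GENCODE annotation of GRCm38, and promoters from RefSeq.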

Additional observations from a re-analysis of the deposited data

How the results depend on the processing

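The number of the 10 genes called in each comparison stayed within 1.5 times that reported under every alternative run, including without replicate 1 of every group (10, 8 and 7 genes), and no gene changed sign in a call. With the replicate block, 9, 8 and 8 genes were called in PH-CM against UNX, CO-CM against UNX and PH-CM against CO-CM, and the pairing changed no call of the 10. In the related lists the block moved 4 counts by 1 gene each, in PH-CM against CO-CM the serine list from 5 to 6 and the transporters from 6 to 7, and in CO-CM against UNX the bZIP genes from 5 to 6 and the other targets from 14 to 15. Of all single-gene values, 599 kept their side of the limits, 23 lost a call and 7 gained one. Those lost were Trib3 in CO-CM against UNX under 9 of 21 alternatives (FDR up to 0.173), Atf4 in PH-CM against CO-CM under 5 (FDR up to 0.0943), Sesn2 in PH-CM against UNX under 5 (log2 fold change down to 0.20) and Atf5 in PH-CM against UNX under 4 (down to 0.25). The number of genes called higher in PH-CM against UNX fell from 3 to 1 with library size alone and without UNX replicate 2. The causes were not tested. Chac1 in PH-CM against CO-CM could not be tested in the fit of only those 2 groups, since it did not pass their filter. Depth limits Chac1 most, at 12 to 28 reads in PH-CM libraries.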
